A study of Homo sapiens with 18 samples.

Results

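The genes described here encode the chaperones of the endoplasmic reticulum (ER) and the sensors, factors and disposal machinery of the unfolded protein response. They were chosen by symbol, and all 32 listed symbols were found among the 31004 genes of the count table. RNA had been sequenced from HCT116 cells, a line established from a human colorectal carcinoma, in 18 libraries that form 6 groups of 3 numbered replicates. Each group paired a background with a second construct. The background was an empty vector (Ctrl), the long noncoding RNA CRLM1 (gene LINC01767) overexpressed, or CRLM1 antisense overexpressed (Antisense). The study used the antisense as a second control. The second construct was HNRNPK overexpression (hnRNPK) or its negative control (NC), which gave Ctrl_NC, CRLM1_NC, Antisense_NC, Ctrl_hnRNPK, CRLM1_hnRNPK and Antisense_hnRNPK. HNRNPK encodes a nucleic acid binding protein, and the series asked which genes CRLM1 and hnRNPK regulate. The study describes a lentiviral vector and stable overexpression for CRLM1, and does not state plainly that the other backgrounds were made likewise. Whether each background was a pool or a single clone is not given in the sources used here. Differences between backgrounds and differences between separately made lines therefore cannot be told apart.

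Secretory and membrane proteins fold in the ER, where chaperones of the HSP70, HSP90 and lectin families and protein disulfide isomerases bind them. When unfolded proteins build up, sensors in the ER membrane start the unfolded protein response. IRE1 (gene ERN1) splices the XBP1 transcript so that it encodes an active transcription factor, ATF6 is cut to release another, and PERK (gene EIF2AK3) phosphorylates eIF2alpha. That phosphorylation favours translation of ATF4, which GCN2 also brings about when amino acids run short, so ATF4 target genes can respond to either kind of stress. Targets of ATF6 and XBP1 are chaperones, components of ER-associated degradation (ERAD) and the translocation channel. The question here was whether the ATF6 and XBP1 arms moved with the amino acid stress genes. Gene-level counts do not separate spliced from unspliced XBP1 transcripts, and cleavage of ATF6 is not measured.

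The libraries held 19732681 to 27039520 counts. HNRNPK, the targeted gene, had group means of 430.3 to 471 CPM (counts scaled to a common library size, here with TMM, a correction in edgeR) in the NC groups and 552 to 652 CPM in the hnRNPK groups. LINC01767 had no counts in any Ctrl library, 599 ± 10.5 CPM in CRLM1_NC and 49.8 ± 0.307 CPM in Antisense_NC (mean ± SD, n = 3 throughout). Strand use in the counting was not given in the sources used here, so sense and antisense reads at LINC01767 cannot be told apart. Of 8 colon epithelium markers, 6 reached 1 CPM, and their sum was 3498 to 9283 CPM per library, with KRT20 and VIL1 under 1 CPM. None of 4 endothelial and 4 leukocyte markers reached 1 CPM, and of 6 fibroblast markers 1 did (COL1A1), for sums of at most 0.687, 0.590 and 32.9 CPM. The third replicates of Ctrl_hnRNPK and CRLM1_hnRNPK stood apart: their log2 CPM correlated at 0.956 to 0.965 with the other replicates of their own group and at 0.980 to 0.986 with the NC libraries of their own background (Pearson's r across genes). All other replicate pairs correlated at 0.987 to 0.991. Every library was kept as labelled, and hnRNPK results are given with and without the third replicates.

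Sequence elements for these factors were looked up in RefSeq promoter windows of 300 bases (GRCh38.p14, 250 bases before and 50 after each start site). Windows were listed for 29 of the 32 members, with no entry for DERL1, DERL3 and PDIA3. ATF6 binds the ER stress response element (ERSE, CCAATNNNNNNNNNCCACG) and its compact form, ERSE-II, in which ATTGG and CCACG stand 1 base apart. ERSE or ERSE-II was found, on either strand, in 10 of 29 members (34.5%) and in 44 of all 27305 genes with a window (0.161%). Members were listed as genes of this response, so their higher share describes that choice and is not a test. Of 35116 windows, 27 held ERSE (0.0769%) and 19 held ERSE-II (0.0541%). The core of the XBP1 element (UPRE, TGACGTGG) was in 256 windows (0.729%), of 253 genes (0.927%). It was in 1 member (3.45%), HYOU1, where it overlapped an ERSE-II match. The core of the ATF4 element (CARE, TGATGNAA) was in 1270 windows (3.62%), of 1217 genes (4.46%). It was in 2 members (6.9%), HERPUD1 and CREB3L2. A match describes letters, not a bound site. Stretches upstream of 5 start sites are shown because these genes carry the changes described below, with ERSE, ERSE-II or CARE matches in capitals and the rest in lower case, 5′ to 3′ on the strand of the gene. The HSPA5 stretch lies at chr9:125241344-125241459 (minus strand), CALR at chr19:12938359-12938452 (plus), XBP1 at chr22:28800570-28800671 (minus), SDF2L1 at chr22:21642064-21642174 (plus) and HERPUD1 at chr16:56931916-56932085 (plus).
HSPA5, ERSE: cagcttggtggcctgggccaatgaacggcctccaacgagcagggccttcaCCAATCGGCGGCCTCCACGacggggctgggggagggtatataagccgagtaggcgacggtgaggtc
CALR, ERSE on the opposite strand: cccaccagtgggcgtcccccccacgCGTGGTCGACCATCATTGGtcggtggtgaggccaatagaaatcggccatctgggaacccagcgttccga
XBP1, ERSE: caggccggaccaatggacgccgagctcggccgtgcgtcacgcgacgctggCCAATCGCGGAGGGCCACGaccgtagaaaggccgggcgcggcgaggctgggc
SDF2L1, ERSE-II on the opposite strand: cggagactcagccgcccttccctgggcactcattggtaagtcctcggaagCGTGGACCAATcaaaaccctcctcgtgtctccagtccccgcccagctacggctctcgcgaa
HERPUD1, CARE on the opposite strand and then ERSE-II: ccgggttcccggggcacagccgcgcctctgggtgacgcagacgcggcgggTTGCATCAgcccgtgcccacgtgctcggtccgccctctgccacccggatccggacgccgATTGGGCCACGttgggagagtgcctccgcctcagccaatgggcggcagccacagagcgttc

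Levels of different genes were compared in Ctrl_NC by the deposited FPKM (fragments per kilobase of exon, scaled to the mapped fragments of the library), which is per length. The highest was P4HB, a protein disulfide isomerase, at 1185 ± 8.58 FPKM. HSPA5 (BiP, the HSP70 of the ER) followed at 736 ± 5.29, then CALR (calreticulin, a lectin chaperone) at 619 ± 5.49 and HSP90B1 (GRP94, the HSP90 of the ER) at 280.2 ± 6.11 FPKM. PDIA4 stood at 178 ± 1.74 and CANX (calnexin) at 115 ± 4.26 FPKM, and none of these neighbours overlapped within its SD. In the middle of the order, XBP1, DNAJB11 and CRELD2 did not differ beyond their spread, at 17.8 ± 1.81, 17.1 ± 0.488 and 17.1 ± 0.546 FPKM. The sensors lay near the bottom of the order, with ERN1 at 3.72 ± 0.137, ATF6 at 2.69 ± 0.107 and EIF2AK3 at 1.48 ± 0.0814 FPKM. EDEM1 (3.62 ± 0.233) and SEL1L (3.13 ± 0.0794), of ERAD, stood between ERN1 and ATF6, and EDEM1 did not differ from ERN1 beyond its spread. DERL3, a derlin of ERAD, had 1 count over all 18 libraries, below the floor of 3 counts per library (0.111 to 0.152 CPM), and it did not pass the filter on low counts in any comparison. The other 31 members were tested in each comparison. Processed copies (HSP90B2P, PDIA3P1, PDIA3P2 and XBP1P1) held at most 0.0958% of the counts of their parent gene.

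In Antisense_NC against Ctrl_NC, 4 of 5 sensors and factors rose, while HSPA5 and the disulfide isomerases fell. HSPA5 fell to 0.504 of its Ctrl_NC level and SDF2L1, a cofactor of HSPA5, to 0.410, while ATF6 rose 2.24-fold, EIF2AK3 1.94-fold and XBP1 1.76-fold. The disulfide isomerases fell in 4 of 4 cases. Of the 31 members tested, 10 rose and 15 fell at an adjusted p of at most 0.05 (edgeR's quasi-likelihood test, Benjamini-Hochberg adjustment over all genes). The background was high: of 14389 genes tested, 34.4% rose and 32.2% fell. With a fold of at least 2 or at most 0.5 as well, 2 members were called, ATF6 and SDF2L1, where 14.1% of all genes were. The median log2 fold change was -0.06 over the members and -0.0025 over all genes. In bulk RNA, fewer cells with a transcript and less of it per cell cannot be told apart.

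**Figure D1:**
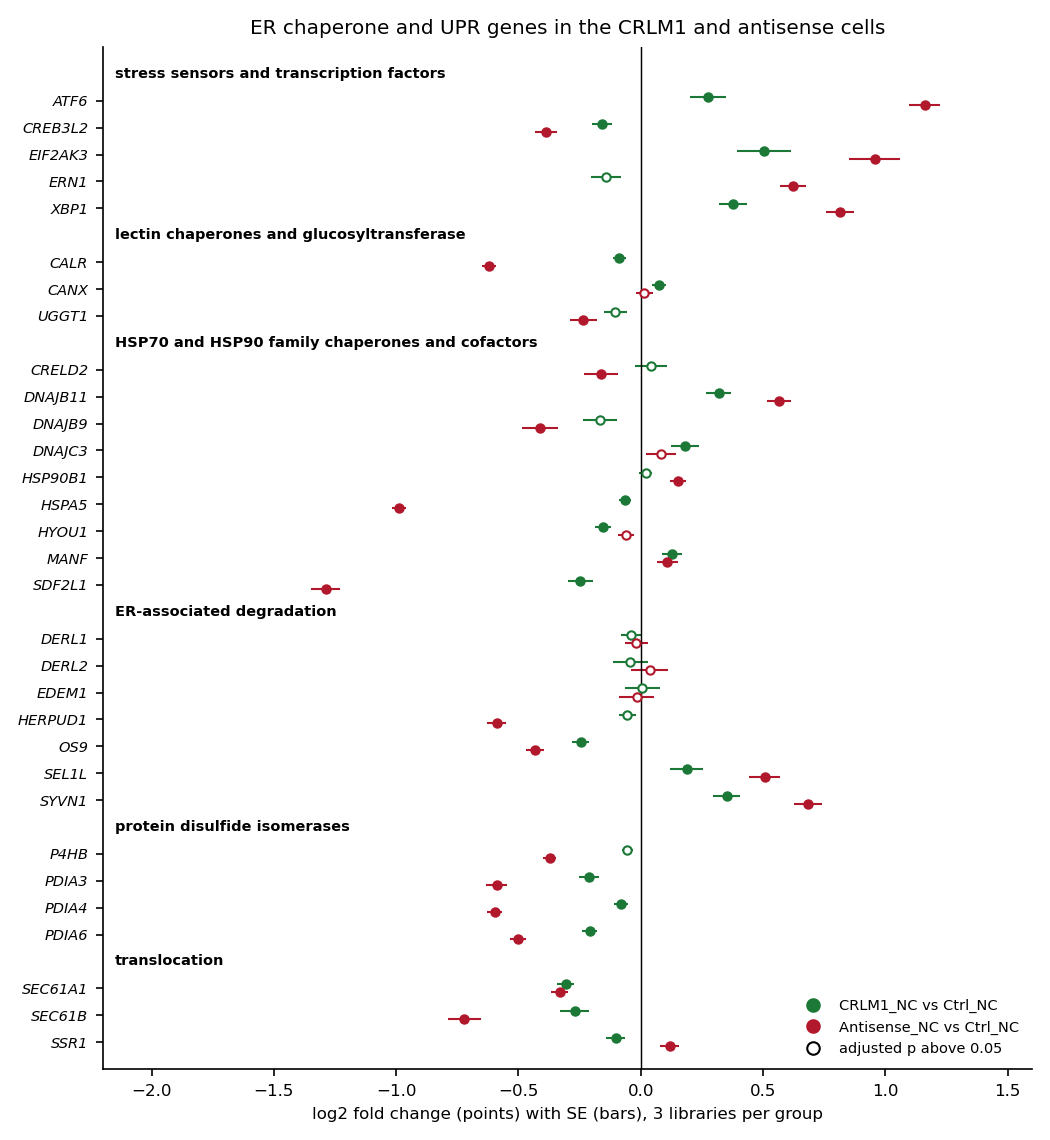
Log2 fold change of each tested member (x axis) in CRLM1_NC (green) and Antisense_NC (red) against Ctrl_NC, by role, with bars of 1 SE and 3 libraries per group. Open points did not pass the adjusted p of 0.05. In Antisense_NC the points of HSPA5 (-0.99) and SDF2L1 (-1.29) lie farthest to the left and those of ATF6 (1.16) and EIF2AK3 (0.96) farthest to the right.

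Of 5 sensors and transcription factors, 4 rose and 1 fell in Antisense_NC. ATF6 stood at 29.8, 27.6 and 29.0 CPM in Ctrl_NC and at 67.6, 67.2 and 64.4 CPM in Antisense_NC, a log2 fold change of 1.16 ± 0.0630 (SE) with an adjusted p of 1.87e-18. EIF2AK3 was at 9.59, 10.5 and 10.6 CPM against 21.5, 22.0 and 18.2 CPM, a log2 fold change of 0.96 ± 0.105. XBP1 was at 49.2, 48.6 and 57.8 CPM against 93.1, 94.4 and 95.9 CPM, a log2 fold change of 0.81 ± 0.0570. The groups did not overlap in any of these genes. ERN1, at 52.9, 53.4 and 49.7 CPM in Ctrl_NC, reached 82.3, 85.2 and 81.2 CPM and rose by 0.62 ± 0.0538 on the log2 scale. CREB3L2, a membrane-bound factor of the ATF6 kind, fell by 0.39 on the log2 scale.

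Among the 9 chaperones and cofactors of the HSP70 and HSP90 families, 3 rose and 4 fell. HSPA5 was at 4141, 4121 and 4071 CPM in Ctrl_NC and at 2100.0, 2203 and 2123 CPM in Antisense_NC, a log2 fold change of -0.99 ± 0.0277 with an adjusted p of 2.62e-27. SDF2L1 went from 86.0, 92.2 and 83.9 CPM to 34.4, 37.3 and 39.6 CPM, a log2 fold change of -1.29 ± 0.0596. The lowest Ctrl_NC library was far above the highest Antisense_NC library for both genes. DNAJB9 (ERdj4), a J-domain protein and a standard readout of spliced XBP1, fell from 36.0, 39.5 and 36.4 CPM to 30.7, 27.4 and 28.9 CPM, a log2 fold change of -0.41 ± 0.0740. DNAJB11, another J-domain cofactor of HSPA5, rose by 0.57 on the log2 scale. HSP90B1 rose by 0.15 and the secreted factor MANF by 0.11, and CRELD2 fell by 0.16. DNAJC3 (p58IPK), which restrains PERK, was at 55.2, 49.9 and 53.8 CPM against 61.6, 57.2 and 54.7 CPM, with overlapping groups and an adjusted p of 0.24. The log2 fold change of HYOU1, the large HSP70 cofactor, was -0.06 at an adjusted p of 0.11.

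CALR fell by 0.62 on the log2 scale, from 1697, 1670.5 and 1680.2 CPM to 1113, 1157 and 1126 CPM. UGGT1, the glucosyltransferase that returns misfolded glycoproteins to the lectins, fell by 0.24, and calnexin (CANX) gave 0.01 at an adjusted p of 0.73. The disulfide isomerases PDIA4, PDIA3, PDIA6 and P4HB fell by 0.60, 0.59, 0.50 and 0.37. P4HB was at 4441, 4386 and 4408 CPM in Ctrl_NC and at 3477, 3586 and 3521 CPM in Antisense_NC. In ERAD, 2 of 7 tested genes rose and 2 fell. SYVN1 (HRD1, the ubiquitin ligase) rose by 0.68, from 53.4, 47.0 and 50.5 CPM to 84.9, 82.4 and 83.01 CPM, and SEL1L, its adaptor, by 0.51. HERPUD1, which recruits substrates to that ligase, fell by 0.59, from 193, 201 and 202 CPM to 131, 136 and 143 CPM. OS9, a lectin that hands glycoproteins to SEL1L, fell by 0.43, while EDEM1, DERL1 and DERL2 lay between -0.02 and 0.04 and did not pass the test. Of the translocation genes, SEC61B, a subunit of the channel, fell by 0.72 from 53.6, 52.1 and 50.9 CPM to 30.8, 31.1 and 36.7 CPM. SEC61A1, the pore, fell by 0.33 and SSR1 rose by 0.12.

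When the trend of each library with transcript GC content was removed, 8 members rose and 20 fell in this comparison, where 32.1% and 32.2% of genes did, and HSP90B1 (-0.15) and SSR1 (-0.17) changed sign. In a single fit of all 18 libraries, which includes the replicates that stood apart in the estimate of spread, 6 rose and 10 fell, where 18.3% and 14.2% of 15668 genes did. ATF6, EIF2AK3, XBP1, ERN1, HSPA5, SDF2L1, CALR, HERPUD1 and 3 of the 4 disulfide isomerases passed the test in both. The deposited FPKM ran opposite to the fit for 1 of the 25 members past the test, CRELD2, on a scale whose median over 9812 genes was 0.23 higher in Antisense_NC (log2).

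**Figure D2:**
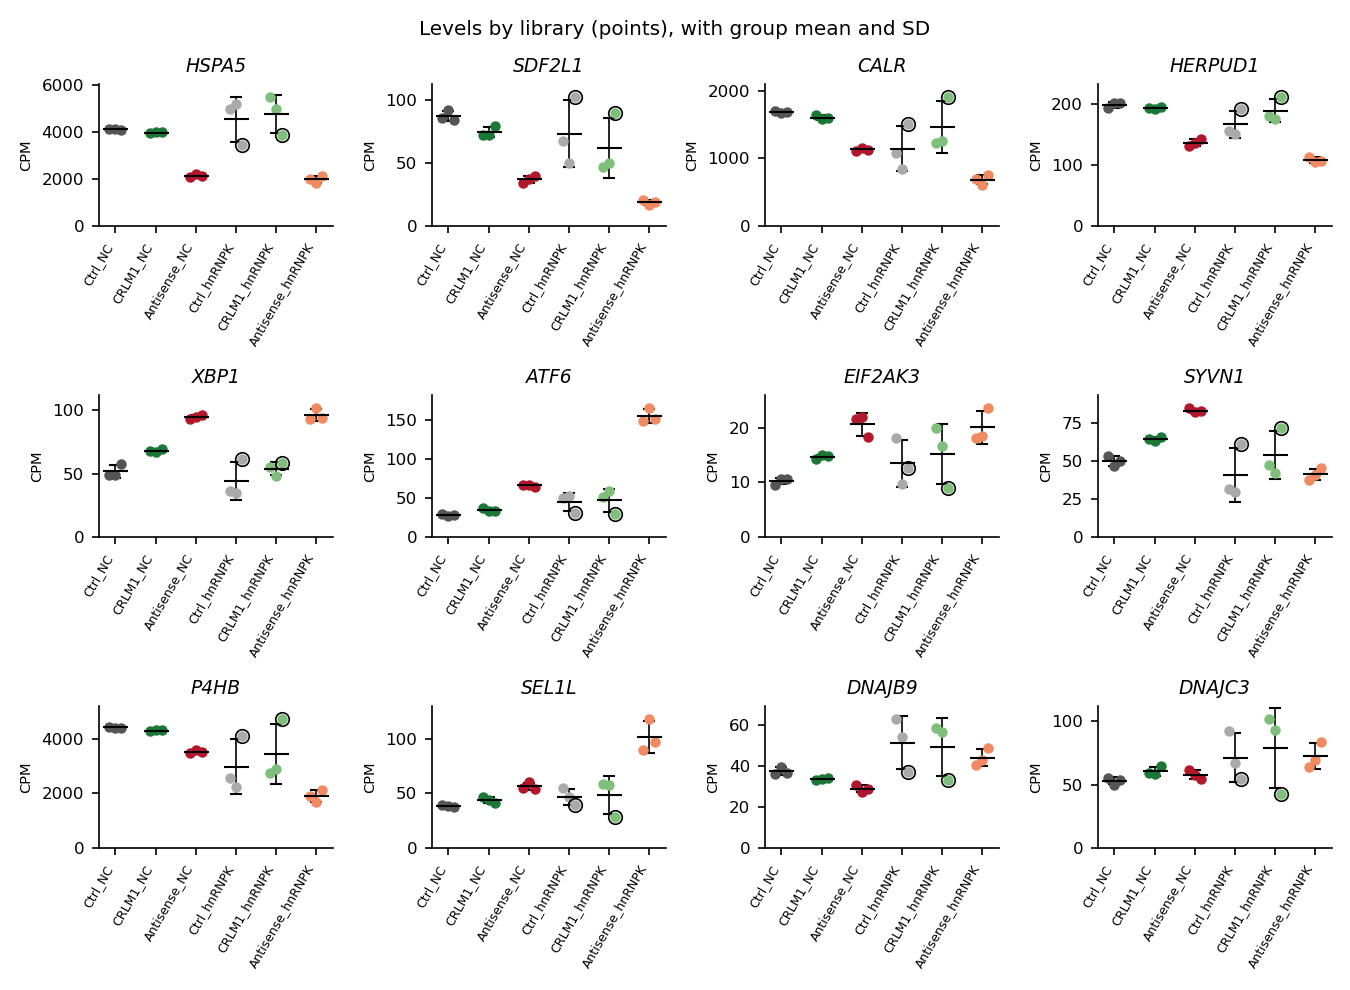
CPM of 12 members (y axis, from 0) in each library (points) by group (x axis), with the group mean (dash) and SD (bars). Black rings mark the third libraries of Ctrl_hnRNPK and CRLM1_hnRNPK. HSPA5 and SDF2L1 are lower in both Antisense groups than in every other group, while ATF6 is highest in Antisense_hnRNPK (149.8, 165 and 152 CPM).

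Both arms were set beside a list of 32 measured amino acid stress genes, most of them ATF4 targets, of which 28 passed the filter on low counts in Antisense_NC against Ctrl_NC. Of these 28, 20 rose and 6 fell, 12 of them at least 2-fold higher, with a median log2 fold change of 0.91. CHAC1, which degrades glutathione, rose from 1.54, 0.640 and 1.38 CPM to 52.2, 49.9 and 56.0 CPM, a log2 fold change of 5.47 ± 0.138. TRIB3, an inhibitor of ATF4, rose by 3.40 ± 0.0916 and ADM2, a peptide hormone, by 2.94 ± 0.183. ATF4 itself rose by 0.78, from a mean of 221 ± 7.10 to 392 ± 12.8 CPM. The genes with the lowest values were CEBPB (-0.96), ATF3 (-0.92) and DDIT4 (-0.87), stress-induced regulators that respond to several pathways. The 9 members assigned to the ATF6 arm (HSPA5, HSP90B1, HYOU1, CALR, PDIA4, MANF, CRELD2, HERPUD1 and SEL1L) gave 3 higher and 5 lower with a median of -0.16. The 10 members of the XBP1 arm (DNAJB9, DNAJB11, DNAJC3, EDEM1, PDIA6, SEC61A1, SEC61B, SSR1, DERL1 and DERL2) gave 2 higher and 4 lower with a median of -0.02. Arms were assigned from general knowledge. Members not read as mainly of a single arm were left out, among them SDF2L1, which fell, and SYVN1, which rose. The amino acid stress list was mostly higher in these libraries, with 20 of 28 rising where 34.4% of all genes did. In the ATF6 arm 3 of 9 rose, near that share, and in the XBP1 arm 2 of 10 did. Falls came to 5 of 9 and 4 of 10, where 32.2% of all genes fell. Both counts of rising genes moved with the GC trend. With it removed, HSP90B1 of the ATF6 arm (-0.15) and SSR1 of the XBP1 arm (-0.17) fell and passed the test.

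**Figure D3:**
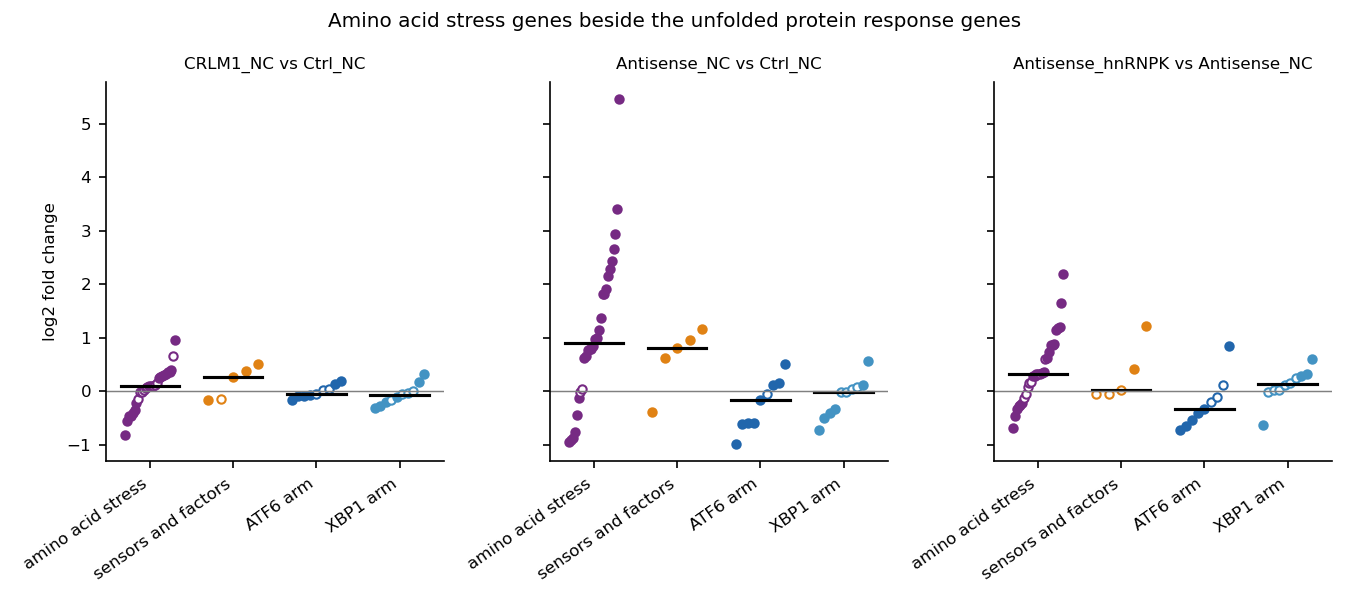
Log2 fold change (y axis) of each gene in 4 lists (x axis) for 3 comparisons, one per panel, with filled points past an adjusted p of 0.05, open points not past it, and a black bar at the median. In the Antisense_NC panel the amino acid stress genes reach 5.47 with a median of 0.91, while the medians of the ATF6 and XBP1 arms are -0.16 and -0.02.

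Members with an element match went in both directions, and so did members without one. In Antisense_NC against Ctrl_NC, ERSE or ERSE-II was found in HSPA5, CALR, SDF2L1, HERPUD1, PDIA6 and CRELD2, which fell, and in XBP1 and HSP90B1, which rose, while HYOU1 and CANX, which also hold a match, did not pass the test. No window of ATF6, EIF2AK3, ERN1, SYVN1, SEL1L, DNAJB11, MANF or SSR1, which rose, held any of the 4 elements. The same held for PDIA4, P4HB, OS9, UGGT1, SEC61A1, SEC61B and DNAJB9, which fell. CREB3L2 fell and held the ATF4 core alone, and PDIA3 fell and had no window. HERPUD1 carried both an ATF6 element and the ATF4 core and fell to 0.665 of its Ctrl_NC level. With the GC trend removed, HSP90B1 (-0.15) and SSR1 (-0.17), listed here as rising, fell instead.

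In CRLM1_NC against Ctrl_NC the changes were small and went in both directions. EIF2AK3 rose 1.42-fold, XBP1 1.30-fold and SYVN1 1.28-fold, while SEC61A1 fell to 0.808, SEC61B to 0.830 and SDF2L1 to 0.842 of Ctrl_NC. Of 31 members tested, 9 rose and 12 fell where 16.9% and 17.4% of 14459 genes did, and none reached a 2-fold change, which 1.58% of genes did. The median was -0.05 over the members and 0.01 over all genes.

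EIF2AK3 was at 14.3, 14.97 and 14.8 CPM in CRLM1_NC, above all Ctrl_NC libraries and below all Antisense_NC libraries, with a log2 fold change of 0.50 ± 0.111 against Ctrl_NC. XBP1 was at 68.1, 67.2 and 69.2 CPM (0.38 ± 0.0590, adjusted p of 2.32e-06) and SYVN1 at 64.7, 63.4 and 66.1 CPM (0.35 ± 0.0568). Both likewise lay between the libraries of the other backgrounds with no overlap. SEC61A1 was at 291, 284 and 307 CPM against 373, 352 and 355 CPM in Ctrl_NC, a log2 fold change of -0.31 ± 0.0334. SEC61B was at 45.0, 42.8 and 43.6 CPM (-0.27 ± 0.0594) and SDF2L1 at 71.9, 72.5 and 79.1 CPM (-0.25 ± 0.0505). ATF6 rose by 0.27 and DNAJB11 by 0.32. ERN1 was at 49.6, 43.0 and 50.6 CPM with a log2 fold change of -0.14 at an adjusted p of 0.077. DNAJB9, at 33.2, 33.5 and 34.3 CPM, gave -0.17 at an adjusted p of 0.060, and HERPUD1, at 194, 191 and 195 CPM, gave -0.05 at 0.24. DNAJC3 rose by 0.18, to 58.9, 58.3 and 64.7 CPM. HSPA5 was at 3955, 3993 and 3988 CPM, a log2 fold change of -0.06 at an adjusted p of 0.039. Leaving out any of the 6 libraries other than Ctrl_NC replicate 3 raised the adjusted p above 0.05. On the deposited FPKM it was 741 ± 7.26 in CRLM1_NC and 736 ± 5.29 in Ctrl_NC. In the single fit of all libraries, 0 members passed the test in this comparison, where 0.651% of 15668 genes did (102 genes).

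The amino acid stress genes gave 10 higher and 7 lower of 28 in CRLM1_NC against Ctrl_NC, with a median of 0.10. The highest were CHAC1 (0.95 ± 0.315), TRIB3 (0.40) and CEBPG (0.37), and the lowest CEBPB (-0.82), PPP1R15A (-0.56) and SLC3A2 (-0.47). The ATF6 arm gave 2 higher and 4 lower of 9 and the XBP1 arm 2 higher and 4 lower of 10. Of all genes, 16.9% were higher and 17.4% lower in this comparison.

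CRLM1_NC was also compared directly with Antisense_NC, which shares its libraries with the comparisons above. SDF2L1 was higher in CRLM1_NC by 1.05 ± 0.0626 on the log2 scale, HSPA5 by 0.93 ± 0.0289 and HERPUD1 by 0.54 ± 0.0411. ATF6 was lower by 0.88 (0.543 of Antisense_NC), ERN1 by 0.76 (0.590) and EIF2AK3 by 0.45 (0.732). Of 31 members, 14 were higher and 10 lower where 26.9% and 29.5% of 14364 genes were, and 1 (SDF2L1) was called at 2-fold where 7.18% of genes were. With the GC trend removed the split was 18 higher and 6 lower, where 27.0% and 26.3% of genes were, and HSP90B1 changed from -0.13 to 0.10. In the single fit 5 were higher and 2 lower, where 6.39% and 8.65% of 15668 genes were. Of 28 amino acid stress genes, 6 were higher and 21 lower, with a median of -0.78.

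The hnRNPK construct was compared with its negative control within each background. In the Antisense background ATF6 rose a further 2.34-fold and SEL1L 1.79-fold, while SYVN1 fell to 0.494, SDF2L1 to 0.505 and P4HB to 0.537 of Antisense_NC. HSPA5 and XBP1 did not pass the test. Of 31 members, 8 rose and 10 fell where 33.4% and 30.5% of 14501 genes did, and 2 were called at 2-fold (ATF6 and SYVN1) where 13.4% of genes were. The median was -0.02 over the members and 0.04 over all genes.

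ATF6 was at 149.8, 165 and 152 CPM in Antisense_hnRNPK, above every other library of the series, with a log2 fold change of 1.22 ± 0.0789 against Antisense_NC and an adjusted p of 9.44e-08. SEL1L was at 89.3, 118 and 97.1 CPM against 55.2, 60.2 and 53.7 CPM (0.84 ± 0.103). SYVN1, its partner in ERAD, went the other way, from 84.9, 82.4 and 83.01 CPM to 37.7, 41.0 and 45.4 CPM (-1.02 ± 0.0821). SDF2L1 fell to 20.4, 17.2 and 18.8 CPM (-0.99 ± 0.0986), its lowest values in any group. P4HB fell to 1893, 1703 and 2120.0 CPM (-0.90 ± 0.0910). The groups did not overlap in any of these 5 genes. ERN1 rose by 0.41 to 105, 123 and 103 CPM, and CALR fell by 0.73 to 697, 614 and 749 CPM. SEC61A1 fell by 0.63 to 189.8, 187 and 197 CPM, CRELD2 by 0.65, PDIA4 by 0.54 and HERPUD1 by 0.34 to 113, 104 and 107 CPM. HSPA5, at 2006, 1833 and 2140.3 CPM, gave -0.11 ± 0.0841 at an adjusted p of 0.27, and XBP1, at 93.0, 101 and 93.6 CPM, gave 0.02 at 0.84. EIF2AK3, at 18.1, 18.5 and 23.5 CPM, gave -0.05 at 0.73. SEC61B, at 44.2, 40.0 and 33.5 CPM, gave 0.26 at 0.063.

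DNAJB9 rose by 0.59 ± 0.0920 to 40.2, 43.1 and 48.6 CPM and DNAJC3 by 0.31 ± 0.0946 to 64.3, 69.1 and 83.7 CPM. Both calls moved with transcript GC content: log2 fold changes over 14337 genes had a Spearman correlation of -0.71 with it in this comparison (genes share libraries and are not replicates). DNAJB9, SEL1L, DNAJC3 and ATF6 have a GC content of 37.3%, 39.3%, 39.9% and 41.2%, while SDF2L1, P4HB and SYVN1 have 65.1%, 56.6% and 56.3%. With that trend removed, 2 members rose (ATF6 by 0.68 and ERN1 by 0.52) and 18 fell, where 18.5% and 20.5% of genes did. SYVN1 (-0.57), SDF2L1 (-0.29) and P4HB (-0.43) remained lower with smaller values. Leaving out Antisense_hnRNPK replicate 3 put DNAJC3 at 0.16, CANX at 0.18 and SSR1 at 0.14, each with an adjusted p above 0.05, while HSPA5 (-0.20) and SEC61B (0.32) then passed the test. With the GC trend removed DNAJB9 gave -0.08, DNAJC3 -0.29, HSPA5 -0.49 and XBP1 -0.51. In Antisense_NC against Ctrl_NC the same correlation was -0.30, and HSPA5, at 43.7% GC under the median of 49.1%, fell by 1.14 with the trend removed.

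Of 29 amino acid stress genes tested in Antisense_hnRNPK against Antisense_NC, 15 rose and 6 fell, with a median of 0.33. Among all genes, 33.4% rose and 30.5% fell. SLC7A11, the cystine transporter, rose by 2.19 ± 0.171, from 46.3, 49.7 and 42.0 CPM to 191, 273 and 168 CPM. ASNS, asparagine synthetase, rose by 1.64 and MTHFD2, a mitochondrial folate enzyme, by 1.20, while EIF4EBP1 (-0.69), CEBPB (-0.46) and ATF3 (-0.33) had the lowest values. The ATF6 arm gave 1 higher (SEL1L) and 5 lower of 9 with a median of -0.34, and the XBP1 arm 3 higher and 1 lower of 10 with a median of 0.14. With the GC trend removed the ATF6 and XBP1 arms each gave 0 higher and 6 lower and the amino acid stress genes 24 higher and 1 lower. Under that setting 18.5% of all genes rose and 20.5% fell.

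In the Ctrl and CRLM1 backgrounds no member passed the test with all libraries, and neither did any of the 14607 and 14394 genes tested (0% in both). At an unadjusted p under 0.05 there were 7 and 1 members and 2246 and 1332 genes. With DESeq2, 0 and 2 genes passed, none of them a member. The third replicates stood apart for the members too. HSPA5 was at 4999 and 5171 CPM in the first and second Ctrl_hnRNPK libraries and at 3445 CPM in the third, and at 5473, 4965 and 3873 CPM in CRLM1_hnRNPK. P4HB ran the other way, at 2569, 2232 and 4111 CPM and at 2752, 2876 and 4707 CPM. ATF6 was at 50.2, 52.4 and 31.4 CPM and at 52.2, 59.2 and 30.3 CPM. For these genes the third library lay closer to the NC libraries of its own background than to the other replicates of its group.

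Without the third library, 11 members rose and 14 fell in Ctrl_hnRNPK against Ctrl_NC, where 29.6% and 29.9% of 15004 genes did. ATF6 (0.86 ± 0.0858), DNAJB9 (0.66), DNAJC3 (0.61) and HSP90B1 (0.61) were highest, and CRELD2 (-0.93), P4HB (-0.85), HYOU1 (-0.81) and CALR (-0.78) lowest. HSPA5 rose by 0.33 ± 0.0413, and XBP1 fell by 0.51. In CRLM1_hnRNPK against CRLM1_NC, again without the third library, 14 members rose and 10 fell where 29.5% and 29.1% of 14685 genes did. HSP90B1 (0.86), DNAJB9 (0.82), DNAJC3 (0.73) and ATF6 (0.71) were highest, and CRELD2 (-0.59), SDF2L1 (-0.57) and P4HB (-0.56) lowest. HSPA5 rose by 0.44 ± 0.0462 and XBP1 fell by 0.35. The ATF6 arm then gave 3 higher and 6 lower in the Ctrl background and 3 higher and 4 lower in the CRLM1 background, and the XBP1 arm 5 higher and 2 lower and 6 higher and 1 lower. The amino acid stress genes gave 3 higher and 18 lower and 5 higher and 15 lower. Log2 fold changes correlated with GC content at -0.71 and -0.63 in these 2 comparisons with all libraries. ATF6, DNAJB9, DNAJC3 and HSP90B1, named as highest in both, have a GC content of 37.3% to 41.2%. The members named as lowest have 53.8% to 65.1%. These fits without the third library were not repeated with the GC trend removed, so how far the counts follow that trend was not tested.

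**Figure D4:**
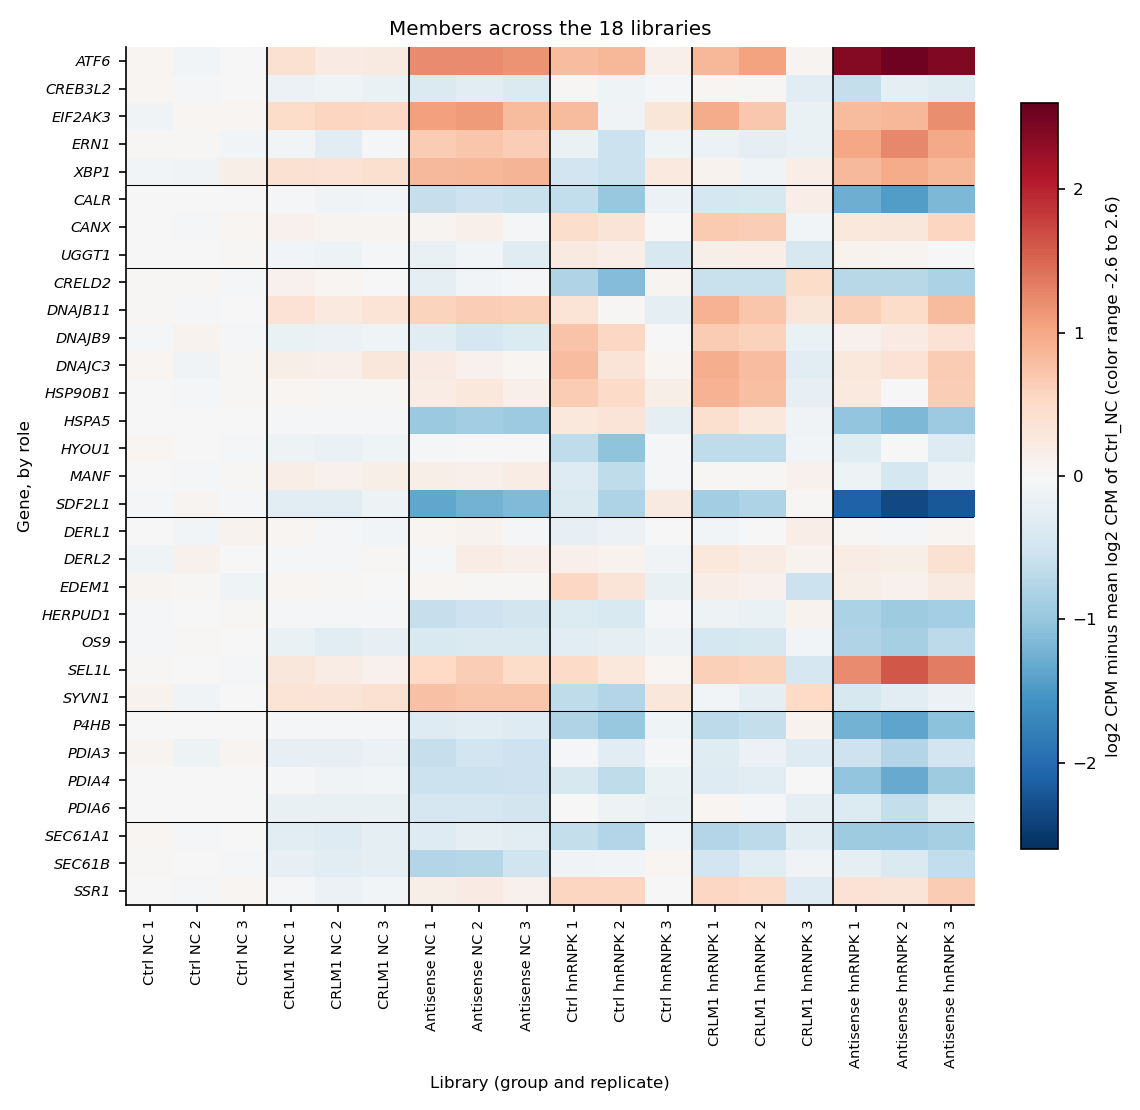
Log2 CPM of the 31 tested members (rows, by role) in each of the 18 libraries (columns), minus the mean log2 CPM of Ctrl_NC, from blue (lower) to red (higher). ATF6 reaches 2.52 and SDF2L1 -2.35 in the second Antisense_hnRNPK library, and the third Ctrl_hnRNPK and CRLM1_hnRNPK libraries are paler than their replicates.

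Whether the hnRNPK effect differed between backgrounds was tested by interaction. With all libraries no member passed in the Antisense background against the Ctrl background (0% of 15346 genes, 2179 of them at an unadjusted p under 0.05, with 5 members) or in CRLM1 against Antisense (1.12% of 15233 genes, 8 members at an unadjusted p under 0.05). With DESeq2, 1 member passed in each, as did 289 genes (0.980% of 29494) and 1027 genes (3.52% of 29191). Among the amino acid stress genes, 7 of 30 passed in CRLM1 against Antisense, with 6 lower and 1 higher. The number of genes past that test, 171 with all libraries, changed when single libraries were left out. Leaving out a library also leaves fewer to estimate the spread, so a lost call need not stem from that library. When each of the 12 libraries was left out in turn, 0 genes passed in 7 cases, with a lowest adjusted p between 0.058 and 0.094. These were the cases without any 1 of the CRLM1_NC or Antisense_NC libraries or without Antisense_hnRNPK replicate 1. Without Antisense_hnRNPK replicates 2 and 3 in turn, 2 and 304 genes passed, 1 and 6 of them amino acid stress genes. Without CRLM1_hnRNPK replicates 1, 2 and 3 in turn, 1108, 487 and 2705 genes passed, with 8, 8 and 22 amino acid stress genes.

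Without the third hnRNPK library of both backgrounds compared, 10 members passed in Antisense against Ctrl, where 16.0% of 15695 genes did, 6 higher and 4 lower. ERN1 (0.79 ± 0.134), HYOU1 (0.68) and XBP1 (0.55) were highest and HSP90B1 (-0.67), HSPA5 (-0.49) and SYVN1 (-0.40) lowest. In CRLM1 against Antisense, 24 members passed where 26.5% of 15489 genes did, 18 higher and 6 lower. HSP90B1 (0.92 ± 0.0983), SYVN1 (0.61), HSPA5 (0.60) and DNAJB11 (0.59) were highest and ATF6 (-0.53), ERN1 (-0.48) and SEC61B (-0.45) lowest. The amino acid stress genes gave 2 higher and 22 lower in that test and 24 higher and 0 lower of 31 in Antisense against Ctrl. With all libraries, the interaction values correlated with GC content at -0.40 in Antisense against Ctrl and 0.45 in CRLM1 against Antisense (Spearman). Removing the GC trend with all libraries kept gave 4 members higher and 2 lower in CRLM1 against Antisense, where 1575 of 15233 genes passed. That removal was not combined with leaving out the third libraries.

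A wider list of 57 measured ER genes, none of them a member, was counted in the same way. In Antisense_NC against Ctrl_NC, 19 of 56 tested rose and 28 fell, where 34.4% and 32.2% of all genes did, with a median of -0.14. FAF2, an adaptor of p97 in ERAD, rose by 1.35, HSPA13, an atypical HSP70, by 1.35 and EDEM3, an ERAD mannosidase, by 1.13, while TXNDC5 (-0.83) and ERP29 (-0.73), of the disulfide isomerase family, and MOGS (-0.67), a glucosidase, were lowest. In Antisense_hnRNPK against Antisense_NC, 16 rose and 23 fell (33.4% and 30.5% of all genes), with HSPA13 (1.62), EDEM3 (1.38) and SPCS3 (0.93), a signal peptidase subunit, highest, and MOGS (-1.24), KDELR1 (-1.03) and GANAB (-0.85) lowest. In CRLM1_NC against Ctrl_NC, 11 rose and 23 fell, where 16.9% and 17.4% of all genes did.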

How the data were processed

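RNA-seq was made from total RNA of 18 HCT116 libraries. Per the study's methods the authors trimmed reads with FASTX-Toolkit, aligned them with TopHat2 to GRCh38 and counted uniquely mapped reads per Gencode gene; the counter and its strand setting are not given in the sources used here. The deposited counts are raw reads per gene, and the deposited FPKM values were scaled by the authors to exon length and mapped fragments. Counts were tested with edgeR 4.0.16 in R 4.3.3 (TMM scaling, filterByExpr, robust quasi-likelihood F-test, two-sided, p-values adjusted by Benjamini-Hochberg across every gene tested) in the libraries of each comparison, with past the test meaning an adjusted p of at most 0.05 and called meaning also a fold of at least 2 or at most 0.5. CPM levels used TMM factors over all 18 libraries. The code was tested on simulated data.

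The labels number the replicates without saying how cultures were kept apart, so p-values measure the spread between these libraries. Total counts ran from 19732681 to 27039520 per library, and 3 counts, taken as the floor, equal 0.111 to 0.152 CPM; floors cover counting error only. Of 31004 genes counted, 30879 had an FPKM row. The study left out the third Ctrl_hnRNPK and CRLM1_hnRNPK libraries; here all labelled libraries were kept. Libraries of a group differed by more than sampling noise (chi-square per gene of at least 3.21). Same-numbered replicates deviated together with correlations of -0.0709 to 0.0333, so the numbers were not taken as pairs. Alternatives were RLE size factors, no filter on low counts, DESeq2 1.42.0, a single fit of all libraries, a replicate block, removal of each library's lowess trend (span 0.3) with transcript GC content, and leaving out each library. The 32 members, their roles and arms, the amino acid stress list, the other ER genes and the cell type markers were chosen with earlier results of these data known. Values per library are given for XBP1, HSPA5, DNAJB9, HERPUD1, DNAJC3 and the 3 highest and 3 lowest members past the test in a comparison whose mean reached 1 CPM, and other members shown per library were chosen after their values were seen. Sequences came from RefSeq promoter windows.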

Additional observations from a re-analysis of the deposited data

Results flagged for a closer look

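The hnRNPK effect differed between the CRLM1 and Antisense backgrounds for 7 of 30 amino acid stress genes tested and for no member (edgeR interaction test, all libraries, adjusted over all genes). The difference, CRLM1 minus Antisense on the log2 scale, was -1.963 for SLC7A11 (adjusted p of 0.021), -1.72 for ASNS (0.019), -1.58 for CHAC1 (0.027), -1.31 for CEBPG (0.027), -1.16 for JDP2 (0.027) and -1.04 for PSAT1 (0.027). It was 1.00 for PPP1R15A (0.038), a phosphatase subunit that reverses eIF2alpha phosphorylation. No gene passed this test when any 1 of the 6 NC libraries or Antisense_hnRNPK replicate 1 was left out, and 1 amino acid stress gene passed without Antisense_hnRNPK replicate 2. Between 6 and 22 passed without any 1 of the other 4 libraries. These fits include the third CRLM1_hnRNPK library, which lay nearer to its NC libraries. Without the third hnRNPK libraries the difference was -1.89 for SLC7A11 and -1.57 for CHAC1. CHAC1 was low in the CRLM1 cells, at 2.28 ± 0.391 CPM in CRLM1_NC and 0.815 ± 0.259 CPM in CRLM1_hnRNPK. In Antisense_NC and Antisense_hnRNPK it was at 52.7 ± 3.12 and 58.4 ± 3.74 CPM.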

How the results depend on the processing

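Of 1144 values of 88 results under the alternatives, 989 kept direction and side of the threshold, 137 lost the call and 18 reversed. These results are only the members past the main test, so gained calls are not counted. They come from the NC comparisons and from Antisense_hnRNPK against Antisense_NC. The hnRNPK comparisons in the Ctrl and CRLM1 backgrounds and the interactions are not among them. All 18 reversals came with the GC trend removed, with or without the replicate block: HSP90B1 (-0.15) and SSR1 (-0.17) in Antisense_NC against Ctrl_NC, DNAJB11 (0.0093, or 0.0086 with the block) and HSP90B1 (0.10) in CRLM1_NC against Antisense_NC, and CANX (-0.25), DNAJB9 (-0.082), DNAJC3 (-0.29), SSR1 (-0.29) and UGGT1 (-0.052, or -0.050 with the block) in Antisense_hnRNPK against Antisense_NC. The single fit of all libraries left 0 members past the test in CRLM1_NC against Ctrl_NC, 16 in Antisense_NC against Ctrl_NC and 7 in CRLM1_NC against Antisense_NC. Of 15668 genes, 102, 5093 and 2357 passed there. For the interactions Antisense minus Ctrl and CRLM1 minus Antisense, DESeq2 gave 1 and 1 members, the GC trend removed 1 and 6, the same with the replicate block 1 and 6, and the third hnRNPK libraries left out 10 and 24. Over all genes, 289 of 29494 and 1027 of 29191 passed with DESeq2. Of 15346 and 15233 genes, 253 and 1575 passed with the GC trend removed, and 327 and 1530 with the block added. With the third libraries left out, 2519 of 15695 and 4107 of 15489 passed. Leaving out each library gave 0 to 25 members in Ctrl_hnRNPK, 0 to 24 in CRLM1_hnRNPK, 0 to 4 and 0 to 15 in the interactions (highest without the third Ctrl_hnRNPK or CRLM1_hnRNPK library), and 16 to 19, 22 to 25, 21 to 24 and 15 to 20 in CRLM1_NC and Antisense_NC against Ctrl_NC, CRLM1_NC against Antisense_NC and Antisense_hnRNPK. Where the most members passed, 8935 of 15004 genes did in Ctrl_hnRNPK and 8596 of 14685 in CRLM1_hnRNPK. In the interactions 1042 of 15743 and 2705 of 15568 genes did. In the remaining comparisons, in the same order, 4138 to 4699, 8962 to 9306, 7255 to 7777 and 8281 to 9385 genes passed, of 14594 to 14926 tested. The replicate block gave 20, 24 and 25 members in those 3 NC comparisons, 0, 0 and 18 in the hnRNPK comparisons and 0 in both interactions. With the block, 4904 of 14459, 9349 of 14389 and 8209 of 14364 genes passed in the NC comparisons. In the hnRNPK comparisons 0, 0 and 9126 of 14501 genes did, and in the interactions 2 and 193. Apart from the removed GC trend, the single fit and the libraries left out, the cause of a lost call was not tested. DERL3 lay below the floor of 3 counts.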
